A study of Homo sapiens with 18 samples.

Results

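The effect of an hnRNPK expression construct was examined in HCT116 cells that stably overexpressed the long noncoding RNA CRLM1. HCT116 is an established line from a human colorectal carcinoma. The comparison used 6 of the 18 RNA-seq libraries of the series, 3 labelled CRLM1_hnRNPK and 3 labelled CRLM1_NC, and its members were all genes that passed a filter on low counts in these libraries, 14394 of the 31004 genes in the count table. CRLM1_hnRNPK cells carried CRLM1 overexpression and HNRNPK overexpression, and CRLM1_NC cells carried CRLM1 overexpression and a negative control, so both groups shared the CRLM1 transgene. CRLM1 was delivered with a lentiviral vector under puromycin selection, and whether the stable cells were a clone or a pool is not given in the sources used here. The replicates were described as biological, without saying what separated them, so p-values measure the spread between these samples. The remaining libraries came from the same cell line with an empty control (Ctrl) or an antisense control (Antisense) in place of CRLM1. The comparison asked which genes hnRNPK changed in the presence of CRLM1.

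hnRNPK, encoded by HNRNPK, is a poly(C)-binding protein whose KH domains bind C-rich stretches of single-stranded RNA and DNA. It is known to act in transcription, splicing, mRNA stability and translation, and it is a cofactor of p53. CRLM1 is the transcript of LINC01767, which the tables list as RP4-710M16.2. In bulk RNA, fewer cells of a type and less RNA per cell cannot be told apart, and values are relative to the RNA of the whole library.

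Total counts per library ran from 19923727 to 25830383, and 19555 to 21137 genes were detected. Replicate 3 of CRLM1_hnRNPK stood apart from its group. Across genes its log2 CPM (counts scaled to a common library size) correlated with replicates 1 and 2 at Pearson r of 0.9561 and 0.9613 and with the CRLM1_NC libraries at 0.9881 to 0.9885, whereas replicates 1 and 2 correlated at 0.9956. These are correlations over 14394 genes, which are not independent replicates. The study left this library out because it did not group with the other hnRNPK samples. Here results with all libraries are the main values, and results without replicate 3 stand beside them. Of 11 colon epithelial markers, 6 exceeded a mean of 1 CPM, led by KRT19 at a mean of 3074 CPM, while CEACAM5 was at 0 in every library. The summed epithelial markers were 5541 to 9443 CPM with hnRNPK and 7922 to 8143 CPM in CRLM1_NC. Of the markers of other cells only COL1A1 (1 of 10 fibroblast markers), CD68 and ITGAM (2 of 10 leukocyte markers) and ESAM (1 of 8 endothelial markers) exceeded 1 CPM, with summed levels of at most 29.85, 4.448 and 12.44 CPM, and DCN, PTPRC, TEK and CLDN5 were at 0.

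The targeted gene, HNRNPK (chromosome 9, 83968083 to 83980631, GRCh38), was read first in every library. It measured 677, 717 and 581 CPM in CRLM1_hnRNPK replicates 1, 2 and 3 and 461, 454 and 454 CPM in CRLM1_NC. Every hnRNPK library lay above every control library, with replicate 3 nearest to the controls. The log2 fold change was 0.56 ± 0.16 (SE) with all libraries (adjusted p = 0.53) and 0.65 ± 0.05 without replicate 3 (adjusted p = 2.0e-12). With the trend on GC content and length removed, as described below for all genes, it was 0.14 without replicate 3 (adjusted p = 0.018) and 0.28 with all libraries (adjusted p = 0.23). In single libraries the trend-removed values were 0.08 in replicate 1, 0.20 in replicate 2 and 0.54 in replicate 3, so the order of the replicates turned. The counts do not separate reads of the construct from those of the endogenous gene. Unless another test is named, every adjusted p comes from edgeR's quasi-likelihood test, two-sided, adjusted by Benjamini-Hochberg across the genes of the fit in question. Each group had 3 replicates, with 2 for hnRNPK where replicate 3 is left out and 1 in the fits of single libraries.

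CRLM1 itself did not separate the groups. RP4-710M16.2 (chromosome 1, 56414918 to 56417137) measured 615, 583 and 670 CPM with hnRNPK and 608, 601 and 585 CPM without, and its log2 fold change was 0.08 ± 0.14 (adjusted p = 0.81). Its neighbour PPAP2B (PLPP3), a lipid phosphatase, measured 9.04, 9.30 and 5.63 CPM against 6.11, 6.67 and 8.43 CPM, with replicate 3 below all controls and the other hnRNPK libraries above them.

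With all 6 libraries, 0 of 14394 genes (0%) were called at an adjusted p of at most 0.05 and a fold change of at least 2 or at most 0.5. The smallest adjusted p was 0.533, and 1332 genes had an unadjusted p under 0.05. On the same libraries DESeq2 called 7 genes, limma on log2 FPKM called 0 and edgeR with the GC and length trend removed called 3 of 14235 (0.0211%), 2 higher (0.014%) and 1 lower (0.00702%). The 7 genes of DESeq2's Wald test were CXCL8, ZNF33B, SNORD14E and NIPSNAP3A, which were higher, and PPP6R1, PMEPA1 and CTD-2587H24.14, which were lower. Without replicate 3, 778 of 14685 genes (5.3%) were called, 451 higher (3.07%) and 327 lower (2.23%). At any fold, 4329 genes were higher (29.5%) and 4267 were lower (29.1%).

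Each hnRNPK library was also fitted alone against the 3 controls. The lone library was assumed to vary like the controls, so these fits compare libraries and not conditions, and they share their controls. Replicate 1 gave 471 genes higher (3.27%) and 314 lower (2.18%), together 5.45% of 14394 genes, and replicate 2 gave 442 higher (3.07%) and 303 lower (2.11%), together 5.18%. Replicate 3 gave 52 higher (0.361%) and 269 lower (1.87%), together 2.23%. At any fold replicate 1 gave 27.8% of genes higher and 26.4% lower, replicate 2 gave 26.5% and 24.4%, and replicate 3 gave 14.3% and 15.7%. The calls of replicates 1 and 2 thus leaned to higher genes and those of replicate 3 to lower genes.

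**Figure D1:**
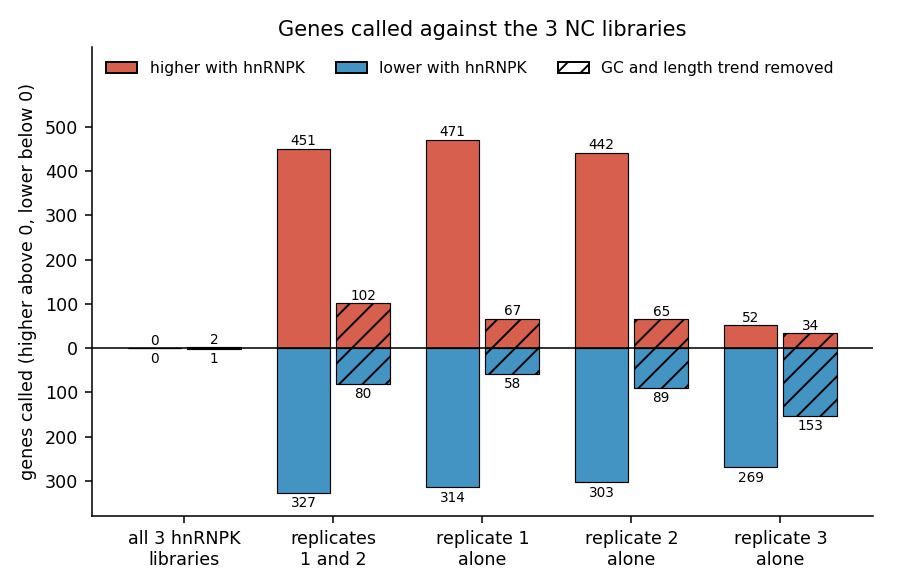
Number of genes called against the 3 CRLM1_NC libraries (y axis, higher above 0 and lower below 0) for all hnRNPK libraries, for replicates 1 and 2, and for each replicate alone, before (plain) and after (hatched) removal of the GC and length trend. With all libraries 0 genes were called, replicates 1 and 2 together gave 451 higher and 327 lower, and replicate 3 alone gave mostly lower genes (269 of 321).

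The fold changes followed the base composition of the genes, in opposite directions in replicates 1 and 2 and in replicate 3. GC content is the share of G and C bases in the union of a gene's exons, and 14235 of the 14394 genes (98.9%) had a value. Across these genes the log2 ratio of a library to the mean of CRLM1_NC had a Spearman correlation with GC content of -0.79 in replicate 1, -0.76 in replicate 2 and 0.48 in replicate 3. Each CRLM1_NC library against the mean of the other controls gave -0.06, -0.03 and 0.09. These values are descriptions across genes of libraries that share their controls. Exon length showed the weaker values of 0.25, 0.22 and -0.33.

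The same pattern stood in the level of the genes. Genes under 40% GC had a median log2 ratio of 0.551 in replicate 1, 0.512 in replicate 2 and -0.224 in replicate 3. Genes of 60% GC or more had medians of -0.582, -0.519 and 0.228. In every bin of GC content the medians of the control libraries lay between -0.021 and 0.027. The mean GC content weighted by counts was 50.2%, 50.4% and 53.1% in hnRNPK replicates 1 to 3 and 52.4% in each control. AT-rich genes were therefore higher in replicates 1 and 2 and lower in replicate 3 than in CRLM1_NC.

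**Figure D2:**
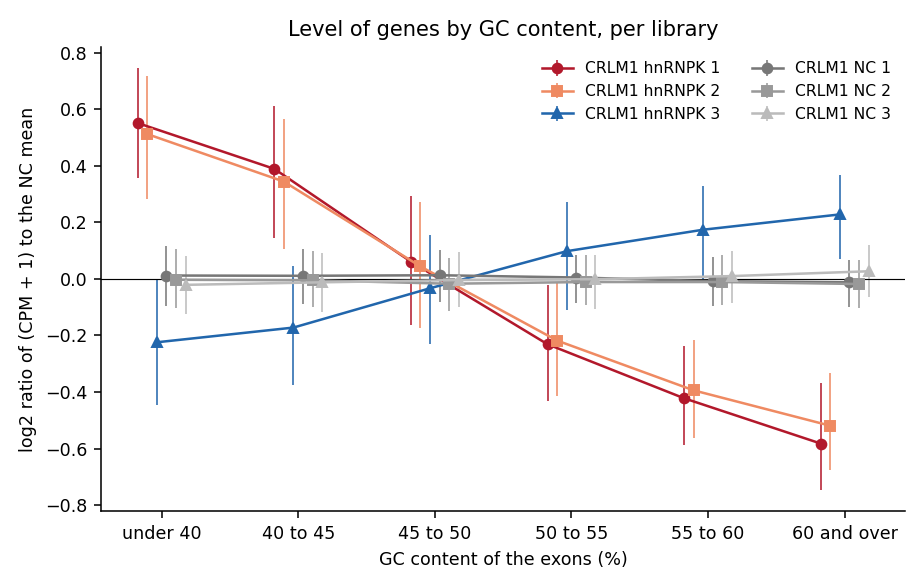
Median log2 ratio of each library to CRLM1_NC (y axis) in bins of the GC content of a gene's exons (x axis, percent), over 14235 genes, with hnRNPK libraries set against the mean of the 3 controls and each control against the mean of the other controls. Replicates 1 and 2 fell from 0.551 and 0.512 in the lowest bin to -0.582 and -0.519 in the highest, replicate 3 rose from -0.224 to 0.228, and the controls stayed flat.

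The called genes without replicate 3 carried this composition. Their median GC content was 40.8% for higher and 60.4% for lower genes, and their median exon lengths were 5414 and 3034 bases. The genes called in replicate 3 alone had the reverse order, 56.2% for higher and 42.1% for lower genes. To show what such genes look like, the middle 120 bases of the longest coding exon of the canonical transcript are printed for 2 of the highest genes, NUP107 (chr12:68741837-68741956) and PHF6 (chrX:134413514-134413633), and for 2 of the lowest, NR1H2 (chr19:50378234-50378353) and SEMA3F (chr3:50187849-50187968), all on the plus strand of GRCh38 with every G and C in capitals.
NUP107: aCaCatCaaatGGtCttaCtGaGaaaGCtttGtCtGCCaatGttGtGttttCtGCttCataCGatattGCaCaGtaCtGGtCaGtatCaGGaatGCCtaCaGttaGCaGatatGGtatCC
PHF6: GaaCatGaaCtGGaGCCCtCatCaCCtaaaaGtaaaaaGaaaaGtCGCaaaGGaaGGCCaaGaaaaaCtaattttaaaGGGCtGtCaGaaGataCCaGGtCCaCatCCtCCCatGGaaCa
NR1H2: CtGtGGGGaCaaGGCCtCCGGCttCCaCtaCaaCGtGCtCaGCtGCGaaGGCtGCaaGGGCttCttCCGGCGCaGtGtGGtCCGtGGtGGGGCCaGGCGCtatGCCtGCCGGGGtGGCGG
SEMA3F: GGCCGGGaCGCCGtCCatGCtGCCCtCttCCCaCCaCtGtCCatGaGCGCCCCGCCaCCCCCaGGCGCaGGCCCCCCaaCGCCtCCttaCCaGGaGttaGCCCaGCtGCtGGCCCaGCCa
G and C made up 40.8% of the NUP107 stretch, 42.5% of the PHF6 stretch, 68.3% of the NR1H2 stretch and 71.7% of the SEMA3F stretch.

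The trend was then removed from each library by an offset that depended on GC content and exon length. The Spearman correlation of the log2 fold change with GC content went from -0.77 to -0.03 without replicate 3, and from -0.64 to -0.02 with all libraries. Without replicate 3, 102 genes were called higher (0.703%) and 80 lower (0.551%), together 1.25%, after this step. Of the 451 genes called higher before, 73 were called after it, as were 50 of the 327 lower genes. The median GC content of the calls was then 50.6% for higher and 47.5% for lower genes. In single libraries the calls went from 785 to 125 in replicate 1 (0.878%), from 745 to 154 in replicate 2 (1.08%) and from 321 to 187 in replicate 3 (1.31%). These were 67 higher (0.471%) and 58 lower (0.407%) in replicate 1, 65 higher (0.457%) and 89 lower (0.625%) in replicate 2, and 34 higher (0.239%) and 153 lower (1.07%) in replicate 3. At any fold the shares were then 10.1% higher and 10.9% lower in replicate 1, 10.8% and 10.9% in replicate 2, and 9.76% and 8.42% in replicate 3. With all libraries the 3 genes called after this step were HSPA1B, ZNF33B and TRIM27, and at any fold 0.19% of genes were higher and 0.162% lower.

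Replicate 3 divided the genes called in the other hnRNPK libraries. Of the 451 higher genes, replicate 3 lay above all controls for 155 (34.4%), within their range for 159 (35.3%) and below them for 137 (30.4%). Of the 327 lower genes it lay below all controls for 133 (40.7%), within for 119 (36.4%) and above for 75 (22.9%). Over all genes tested, all 3 hnRNPK libraries lay above all controls for 1089 (7.57%) and below all controls for 1094 (7.6%). These shares require all 3 libraries and are not a baseline for replicate 3 alone. The share of all genes in which replicate 3 alone lay above or below the controls was not counted.

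**Figure D3:**
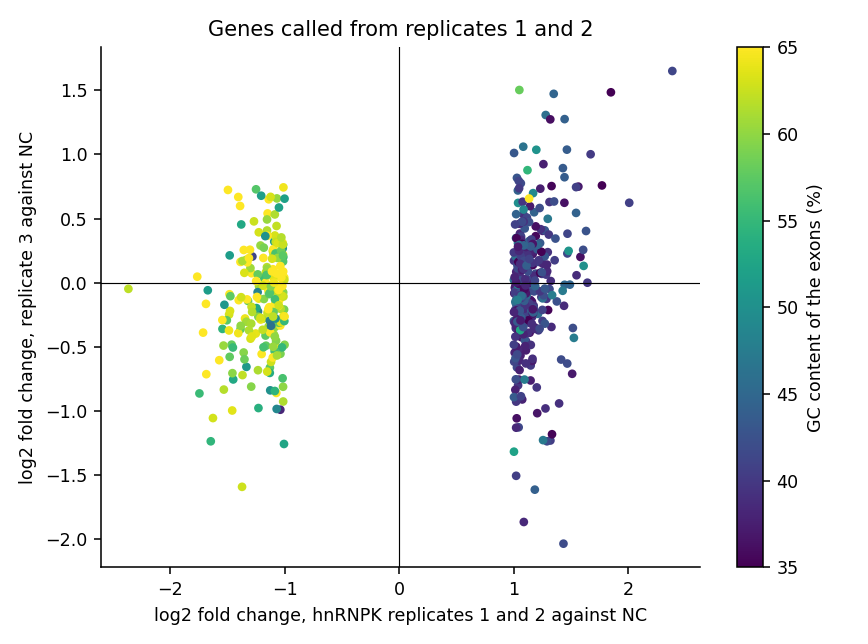
Log2 fold change of hnRNPK replicate 3 alone against CRLM1_NC (y axis) beside that of replicates 1 and 2 (x axis), for 563 genes called without replicate 3 that have a GC value and a mean of at least 1 CPM, coloured by GC content. On the y axis the values ran from -2.03 to 1.65 and lay on both sides of 0 for genes higher in replicates 1 and 2 (338 shown) as for lower ones (225 shown), and both axes share the CRLM1_NC libraries.

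CXCL8 (chromosome 4, 73740519 to 73743716), the neutrophil-attracting chemokine interleukin 8, had the largest log2 fold change without replicate 3 among the genes named for a mean of at least 5 CPM. It measured 133, 143 and 71.8 CPM with hnRNPK and 42.9, 38.2 and 43.2 CPM in CRLM1_NC. All hnRNPK libraries lay above all controls, and replicate 3 was the nearest to them. The log2 fold change was 1.52 ± 0.28 with all libraries (adjusted p = 0.53), 1.77 ± 0.07 without replicate 3 (adjusted p = 1.5e-17) and 0.99 without replicate 3 after removal of the trend (adjusted p = 8.8e-13). DESeq2's Wald test on all libraries gave it an adjusted p of 0.00068, and edgeR with the trend removed gave 0.96 at an adjusted p of 0.0037.

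The promoters of CXCL8 and of its neighbours CXCL1, CXCL2 and CXCL3 share a known kappaB motif, the site to which NF-kappaB binds, and 30 bases around it are shown with the motif GGAATTTCC in capitals. The sequences come from RefSeq on GRCh38.p14, CXCL8 from chr4:73740468-73740497 and CXCL1 from chr4:73869305-73869334 on the plus strand, CXCL2 from chr4:74099253-74099282 and CXCL3 from chr4:74038748-74038777 on the minus strand.
CXCL8: tgcaaatcgtGGAATTTCCtctgacataat
CXCL1: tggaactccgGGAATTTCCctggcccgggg
CXCL2: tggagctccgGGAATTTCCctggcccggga
CXCL3: tggagctccgGGAATTTCCctggcccggcc
The motif begins 91, 78, 77 and 78 bases before the RefSeq start of CXCL8, CXCL1, CXCL2 and CXCL3. On either strand, 145 of 35116 RefSeq promoters hold it within 250 bases before the start (0.413%). A match describes these letters and not the binding of a factor.

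CXCL3 measured 6.28, 5.69 and 7.53 CPM against 2.38, 2.95 and 4.22 CPM, and CXCL1 measured 36.5, 36.2 and 41.9 CPM against 28.3, 31.7 and 27.4 CPM. For both chemokines every hnRNPK library lay above every control, and replicate 3 was the highest. CXCL3 was higher by 0.95 ± 0.22 on the log2 scale without replicate 3 (adjusted p = 0.00048) and by 0.86 after removal of the trend (adjusted p = 0.0039). CXCL1 was higher by 0.35 (adjusted p = 0.001), which became 0.14 after removal of the trend (adjusted p = 0.27). CXCL2 measured 4.80, 3.31 and 5.08 CPM against 2.79, 3.45 and 2.64 CPM, so its groups overlapped through 1 hnRNPK and 1 control library.

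In the wider list of 31 tested chemokines and NF-kappaB targets, 11 genes were higher and 11 lower at any fold without replicate 3, beside 29.5% and 29.1% of all genes. After removal of the trend 16 of 30 were higher and 2 lower, beside 13.5% and 13.6% of all genes. In replicate 3 alone 18 were higher and 1 lower, beside 14.3% and 15.7%. In 6 of the 31 genes all hnRNPK libraries lay above all controls, and in 0 below, beside 7.57% and 7.6% of all genes. The median log2 fold change of the list was 0.00, -0.02 and 0.31 in replicates 1, 2 and 3. NFKBIA, the inhibitor that NF-kappaB itself induces, measured 415, 432 and 555 CPM against 373, 380 and 376 CPM, with no overlap. BIRC3, an inhibitor of apoptosis and NF-kappaB target, measured 528, 480 and 218 CPM against 244, 239 and 219 CPM. It was 1.15 higher on the log2 scale without replicate 3 (adjusted p = 3.7e-16) and 0.46 higher after removal of the trend, and replicate 3 lay just below the controls. IL32, a cytokine and 1 of the 2 genes named as highest in replicate 3 alone, measured 43.2, 49.6 and 85.2 CPM against 42.8, 39.6 and 40.2 CPM.

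**Figure D4:**
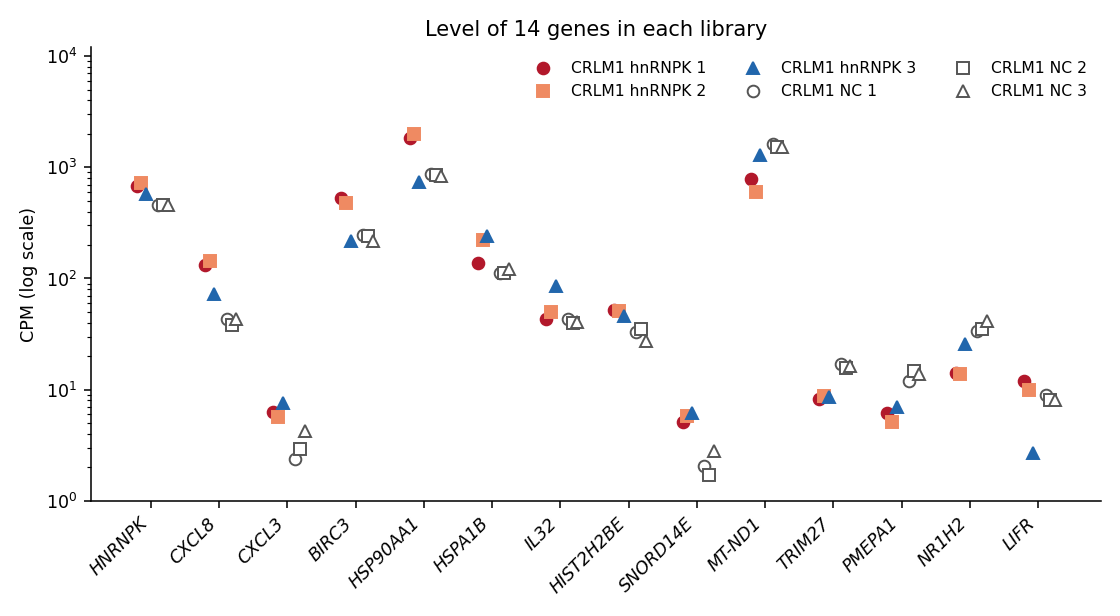
Normalised level of 14 genes (y axis, CPM on a log scale) in each of the 6 libraries, filled symbols for hnRNPK replicates and open symbols for CRLM1_NC replicates. HNRNPK, CXCL8, CXCL3, HSPA1B, IL32, HIST2H2BE and SNORD14E lie above the controls in every hnRNPK library, MT-ND1, TRIM27, PMEPA1 and NR1H2 lie below, and replicate 3 (blue triangles) departs from the other hnRNPK libraries for BIRC3, HSP90AA1 and LIFR.

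Among the highest genes without replicate 3 were NUP107, a nuclear pore scaffold protein, and PHF6, a PHD-finger chromatin protein. NUP107 measured 57.6, 68.3 and 26.7 CPM against 25.4, 26.4 and 25.6 CPM, and its log2 fold change of 1.32 ± 0.08 (adjusted p = 1.5e-13) became 0.71 after removal of the trend (adjusted p = 1.2e-07). PHF6 measured 37.6, 43.6 and 19.2 CPM against 16.9, 16.9 and 17.3 CPM. The log2 fold change of PHF6 was 1.29, and 0.68 after removal of the trend. For both genes replicate 3 lay just above the controls. DDX60, an interferon-induced helicase-like protein, measured 12.7, 14.9 and 4.72 CPM against 5.03, 5.49 and 5.13 CPM, so replicate 3 lay below every control, and its log2 fold change of 1.44 without replicate 3 became 0.86. SRBD1, KIAA1143 and ZNF33B were higher by 1.47, 1.3 and 1.54 on the log2 scale without replicate 3, and by 0.94, 0.72 and 1.01 after removal of the trend. ZNF33B, a zinc finger gene, kept a difference in replicate 3, with 11, 11.7 and 6.85 CPM against 4.36, 3.40 and 4.22 CPM, and with the trend removed it was 1.02 higher on the log2 scale with all libraries (adjusted p = 0.031).

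The other genes whose libraries did not overlap and had the widest gap between groups were DDX59, an RNA helicase, OARD1, an ADP-ribose hydrolase, PPP1R1C, an inhibitory subunit of protein phosphatase 1, and YEATS4, a reader of acetylated histones. YEATS4 measured 17.5, 16.9 and 11.9 CPM against 8.36, 9.12 and 7.62 CPM, and DDX59 measured 22.1, 20.1 and 12.2 CPM against 9.17, 8.58 and 9.20 CPM. In all 4 genes replicate 3 was the lowest hnRNPK library. Their log2 fold changes without replicate 3 were 1.02 to 1.27, and after removal of the trend they were 0.47 to 0.85, where PPP1R1C did not pass the test (adjusted p = 0.059). NIPSNAP3A, chosen after its values were seen, measured 4.38, 6.23 and 5.40 CPM against 1.98, 2.18 and 2.39 CPM, with replicate 3 between the other hnRNPK libraries.

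Among the lowest genes, NR1H2, the oxysterol receptor LXR-beta, measured 14, 13.9 and 25.8 CPM with hnRNPK and 33.8, 35.2 and 41.3 CPM in CRLM1_NC. SEMA3F, a secreted guidance protein of the semaphorin family, measured 7.11, 7.22 and 18.1 CPM against 19.1, 19.2 and 19.1 CPM. Both genes were lowest in replicates 1 and 2, with replicate 3 between these and the controls. The log2 fold change without replicate 3 was -1.36 ± 0.11 for NR1H2 (adjusted p = 8.8e-12), which became -0.85 after removal of the trend, and -1.38 ± 0.13 for SEMA3F (adjusted p = 2.9e-10), which became -0.78. CASKIN2, HIC2 (a transcriptional repressor), SPATA2L and ZNF408 had log2 fold changes of -1.48, -1.46, -1.54 and -1.38 without replicate 3, all with replicate 3 nearer to the controls. After removal of the trend these were -0.86, -0.95, -0.82 and -0.89, short of a 2-fold change. BCYRN1, a short brain cytoplasmic RNA with many similar copies in the genome, is uncertain for that reason, and its 18.1 CPM in replicate 3 lay above all controls.

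PMEPA1, a membrane protein induced by TGF-beta that restrains its signalling, measured 6.14, 5.09 and 7.04 CPM against 11.9, 14.7 and 13.9 CPM. All hnRNPK libraries lay below all controls. Its log2 fold change was -1.13 ± 0.20 with all libraries (adjusted p = 0.53, DESeq2 adjusted p = 0.016) and -0.95 without replicate 3 after removal of the trend (adjusted p = 2.0e-05). PPP6R1, a regulatory subunit of protein phosphatase 6, measured 43.0, 36.5 and 61.2 CPM against 98.3, 95.1 and 94.3 CPM. CTD-2587H24.14, which measured 3.69, 3.71 and 5.36 CPM against 10.8, 9.66 and 10.8 CPM, spans 55227219 to 55230279 of chromosome 19 and overlaps the end of PPP6R1 (55229779 to 55259017), so reads of the pair may not be told apart. ISL2, a LIM-homeodomain factor, NAA60, an N-terminal acetyltransferase, and SH3BP5L also lay below the controls in every hnRNPK library. After removal of the trend the log2 fold changes without replicate 3 were -0.68 for PPP6R1, -0.85 for CTD-2587H24.14, -0.54 for ISL2, -0.79 for NAA60 and -0.63 for SH3BP5L, from -1.23, -1.46, -1.01, -1.09 and -1.02.

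TRIM27, a RING-type ubiquitin ligase, gave close values among hnRNPK libraries, 8.26, 8.80 and 8.58 CPM against 15.8 to 16.9 CPM in the 3 controls. Its groups were separated by more than the spread within them, and its log2 fold change was -0.90 ± 0.17 with all libraries (adjusted p = 0.53). With the trend removed it was -1.02 with all libraries (adjusted p = 0.029) and -1.16 without replicate 3 (adjusted p = 3.9e-08).

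Heat shock protein genes differed between the libraries by family member. HSP90AA1, the inducible cytosolic HSP90, measured 1855, 1997 and 739 CPM against 871, 848 and 841 CPM, and HSPD1, the mitochondrial chaperonin HSP60, measured 894, 961 and 430 CPM against 470, 473 and 487 CPM. Both were high in replicates 1 and 2 and below the controls in replicate 3. Their log2 fold changes without replicate 3 were 1.21 ± 0.05 (adjusted p = 2.1e-17) and 1.00 ± 0.05 (adjusted p = 7.9e-16), and 0.95 and 0.54 after removal of the trend. HSPA1B, an inducible HSP70, measured 139, 220 and 243 CPM against 112, 113 and 121 CPM, with no overlap and the highest value in replicate 3. With the trend removed its log2 fold change was 1.02 with all libraries (adjusted p = 0.029), but HSPA1A is a near-identical copy and the division of reads between them is uncertain. Over 22 tested cytosolic heat shock genes, 13 were higher and 3 lower without replicate 3, 15 were higher and 1 lower after removal of the trend, and 5 were higher and 7 lower in replicate 3 alone. Over all genes tested the shares higher and lower were 29.5% and 29.1%, 13.5% and 13.6%, and 14.3% and 15.7% in these fits. The list median was 0.52, 0.57 and -0.02 in replicates 1, 2 and 3.

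HSPA8, the constitutive HSP70, hosts the box C/D small nucleolar RNAs SNORD14C, SNORD14D and SNORD14E, guides for methylation of ribosomal RNA. Their genes are printed with the letters of box C in the form TGATGA and of box D in the form CTGA in capitals, from chr11:123059335-123059422, chr11:123058909-123058995 and chr11:123058077-123058161 of GRCh38, minus strand.
SNORD14C: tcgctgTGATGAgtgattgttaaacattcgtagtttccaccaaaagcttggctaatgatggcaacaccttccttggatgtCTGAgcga
SNORD14D: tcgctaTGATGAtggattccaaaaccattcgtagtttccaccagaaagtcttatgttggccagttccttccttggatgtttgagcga
SNORD14E: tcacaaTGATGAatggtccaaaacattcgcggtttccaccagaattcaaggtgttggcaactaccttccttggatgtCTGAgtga
The CTGA letters were not found in SNORD14D. All 3 genes lie inside HSPA8 (chr11:123057489-123063230) and overlap 0 exons of its canonical transcript. SNORD14E measured 5.08, 5.78 and 6.22 CPM against 2.07, 1.72 and 2.79 CPM, SNORD14D 4.94, 6.77 and 3.99 CPM against 2.29, 2.18 and 2.13 CPM, and SNORD14C 4.85, 6.92 and 3.09 CPM against 1.93, 2.18 and 2.08 CPM. Every hnRNPK library lay above every control in all 3 genes. HSPA8 measured 2541, 2624 and 1574 CPM against 1638, 1568 and 1583 CPM, so its replicate 3 lay within the controls while those of the small RNAs did not. The small RNA genes cannot be told apart from the introns that hold them in counts of uniquely mapped reads. Of 64 small nucleolar RNAs tested without replicate 3, 13 were higher and 1 lower at any fold, beside 29.5% and 29.1% of all genes, so the share that was higher was not above that of all genes. With all libraries 9 of the 57 tested lay above the controls in every hnRNPK library, beside 7.57% of all genes.

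Of the 5 tested poly(C)-binding proteins, 4 were lower and 1 higher at any fold without replicate 3, beside 29.1% and 29.5% of all genes. After removal of the trend 2 were lower and 1 higher, beside 13.6% and 13.5%. The list median went from -0.39 to -0.12. PCBP1 measured 278, 276 and 406 CPM against 368, 365 and 386 CPM, PCBP2 113, 115 and 168 CPM against 144, 143 and 143 CPM, and PCBP4 45.5, 47.7 and 84.6 CPM against 66.9, 73.2 and 72.6 CPM. All 3 genes were below the controls in replicates 1 and 2 and above them in replicate 3. Of the 5 tested poly(C)-binding proteins, 1 was called lower at 2-fold without replicate 3, beside 2.23% of all genes. In 1 of the 5 every hnRNPK library lay below every control, beside 7.6% of all genes. PCBP1, PCBP2 and PCBP4 met neither condition. After removal of the trend PCBP2 was lower by 0.54 without replicate 3 on the log2 scale (adjusted p = 2.0e-09). PCBP1 gave -0.12 (adjusted p = 0.044) and PCBP4 gave -0.06 (adjusted p = 0.56) in that fit.

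Of 26 other hnRNP protein genes, 17 were higher and 6 lower without replicate 3, and 9 were higher and 5 lower after removal of the trend, with list medians of 0.42 and 0.04. The shares over all genes were 29.5% and 29.1% before and 13.5% and 13.6% after. HNRNPH1 measured 254, 253 and 134 CPM against 144, 144 and 145 CPM, and HNRNPU, a scaffold-attachment protein, measured 366, 358 and 221 CPM against 210, 203 and 193 CPM. The log2 fold change of HNRNPH1 without replicate 3 went from 0.85 to 0.53 on removal of the trend (adjusted p = 3.0e-10), and that of HNRNPU from 0.88 to 0.24 (adjusted p = 0.00016). HNRNPH2 was higher by 1.03 without replicate 3 (adjusted p = 1.5e-11), and RPL36A-HNRNPH2, a read-through transcript that overlaps it, by 1.33, so the pair is uncertain. Of 13 SR splicing factors, 10 were higher and 1 lower without replicate 3 (all genes 29.5% and 29.1%), against 3 higher and 4 lower after removal of the trend (all genes 13.5% and 13.6%).

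With the trend removed and replicate 3 left out, the highest genes were RPL36A-HNRNPH2 at 1.27, HLA-V, a pseudogene, at 1.22, HSPA1B at 1.11 (adjusted p = 0.038), RP11-307N16.6 at 1.08 and AL021546.6 at 1.05 on the log2 scale. HLA-V measured 12.5, 13.2 and 8.17 CPM against 10.7, 7.21 and 7.37 CPM, so replicate 3 lay within the controls. The lowest were MT-ND3, MT-ND2, MT-ND1, BCYRN1 and TRIM27.

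Messenger RNAs of the mitochondrial genome were lower in replicates 1 and 2. The list median in replicates 1, 2 and 3 was -0.43, -0.36 and -0.16. Their median GC content was 44.3%, beside 48.9% for all genes, and the part of base composition was not tested. All 13 were lower at any fold without replicate 3, with a list median of -0.42, and all 13 after removal of the trend, with a median of -0.56, beside 29.1% and 13.6% of all genes. MT-ND1, a subunit of complex I, measured 793, 598 and 1302 CPM against 1628, 1531 and 1521 CPM. MT-ND3, another subunit, measured 298, 232 and 439 CPM against 521, 502 and 556 CPM, and MT-ND2 measured 169, 125 and 205 CPM against 296, 268 and 282 CPM. In each of these genes every hnRNPK library lay below every control, replicate 3 by the least. Over the 13 genes 7 lay below in this way, beside 7.6% of all genes. The log2 fold change of MT-ND1 was -1.13 ± 0.08 without replicate 3 (adjusted p = 3.7e-09) and -1.20 after removal of the trend (adjusted p = 0.0026). Mitochondrial genes have nuclear copies, so their counts of uniquely mapped reads are uncertain. The share of all counts from the mitochondrial genome, ribosomal RNA included, was 6.13%, 5.42% and 4.68% with hnRNPK and 4.95% to 5.11% without, and MT-RNR2, a mitochondrial ribosomal RNA, was the most abundant gene in replicates 1 and 2.

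Nuclear genes of the respiratory chain and of the ribosome instead stood out in replicate 3. Of 79 cytosolic ribosomal protein genes, 68 were higher and 0 lower in replicate 3 alone, beside 14.3% and 15.7% of all genes, with a median log2 fold change of 0.33, against medians of -0.04 and 0.04 in replicates 1 and 2. Their share of all counts was 7.76%, 8.19% and 9.46% in hnRNPK replicates 1 to 3 and 8.02% to 8.24% in the controls. Of 76 nuclear respiratory chain subunits, 46 were higher and 0 lower in replicate 3 (all genes 14.3% and 15.7%), with a median of 0.29. Without replicate 3 and after removal of the trend 7 were higher and 37 lower (all genes 13.5% and 13.6%).

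Of 53 histone cluster genes in the table, 18 passed the count filter with all libraries and 20 without replicate 3. Their mRNAs lack a poly(A) tail in cycling cells, and many members are near-identical, which makes counts of single genes uncertain. Of the 18 genes, 10 lay above the controls in all hnRNPK libraries and 0 below, beside 7.57% and 7.6% of all genes, and 0 passed the test with all libraries. At any fold 8 of 20 were higher and 0 lower without replicate 3 (all genes 29.5% and 29.1%), 7 of 19 and 0 after removal of the trend (all genes 13.5% and 13.6%), and 4 of 18 and 0 in replicate 3 alone (all genes 14.3% and 15.7%). The list median was 0.49, 0.73 and 0.73 in replicates 1, 2 and 3, and 0.70 and 0.68 before and after removal of the trend without replicate 3. HIST2H2BE measured 52.1, 51.2 and 46.0 CPM against 33.0, 35.2 and 27.6 CPM, and HIST1H1C, a linker histone, measured 62.0, 63.8 and 86.9 CPM against 53.4, 49.5 and 50.6 CPM. HIST1H2AC measured 25.9, 26.7 and 15.9 CPM against 12.5, 13.0 and 13.0 CPM. The groups did not overlap for these 3 genes. NPAT, the coactivator of histone gene transcription, measured 8.67, 6.28 and 2.04 CPM against 6.29, 6.03 and 5.74 CPM and was among the lowest genes of replicate 3 alone.

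**Figure D5:**
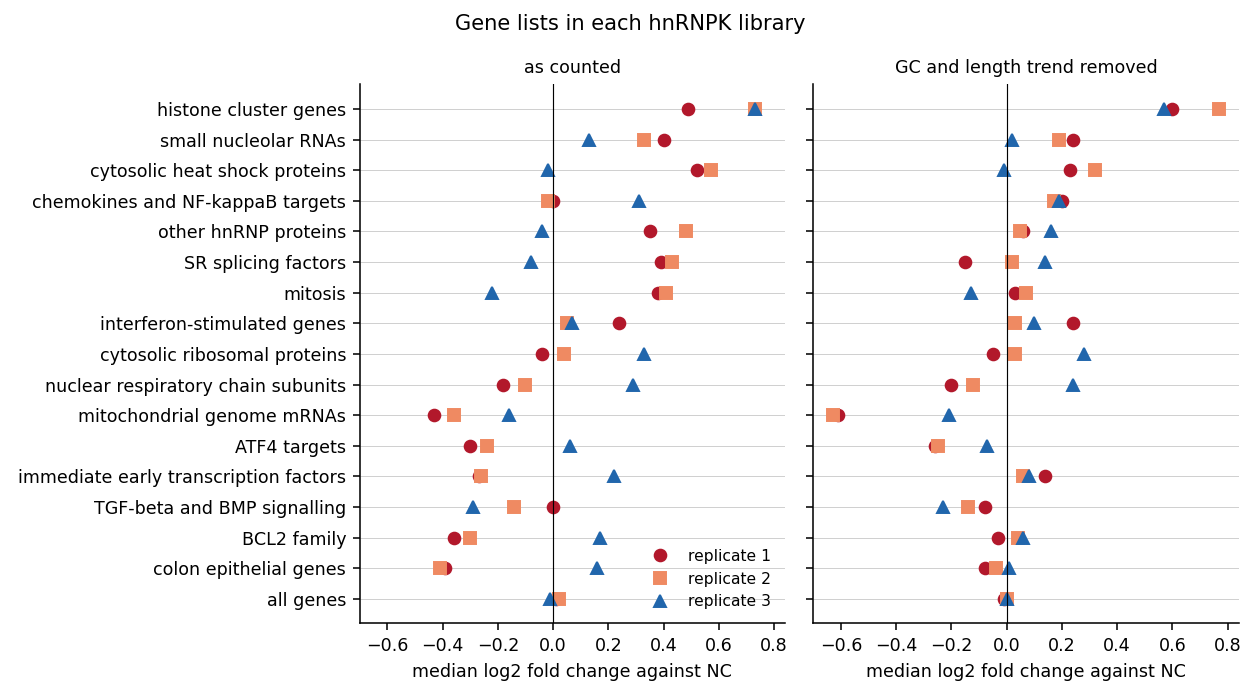
Median log2 fold change against CRLM1_NC (x axis) of the tested members of each gene list (y axis), for hnRNPK replicates 1, 2 and 3 each fitted alone against the same controls, as counted (left panel) and with the GC and length trend removed (right panel). In both panels mitochondrial mRNAs lie below 0 and histone cluster genes above 0 in all 3 replicates, and the hnRNP, SR and mitosis lists, at 0.35 to 0.48 in replicates 1 and 2 as counted, lie nearer to 0 in the right panel.

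Of 28 immediate early genes, 7 were higher and 17 lower without replicate 3 (all genes 29.5% and 29.1%), against 11 higher and 5 lower after removal of the trend (all genes 13.5% and 13.6%). FOS, an AP-1 subunit, measured 31.7, 45.8 and 49.6 CPM against 28.2, 24.1 and 24.2 CPM, above the controls in all hnRNPK libraries. IRF1, an interferon-induced transcription factor, measured 111, 133 and 187 CPM against 102, 99.7 and 88.3 CPM, also without overlap and with its highest value in replicate 3. ETV5, an ERK-induced ETS factor, measured 41.0, 36.2 and 41.9 CPM against 64.0, 63.1 and 66.1 CPM. Its log2 fold change was -0.67 ± 0.16 with all libraries (adjusted p = 0.53), and -0.71 with the trend removed (adjusted p = 0.024).

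Of 19 BCL2 family genes, 5 were higher and 12 lower without replicate 3 (all genes 29.5% and 29.1%), against 5 higher and 3 lower after removal of the trend (all genes 13.5% and 13.6%). MCL1, which protects cells from apoptosis, measured 614, 605 and 363 CPM against 362, 362 and 368 CPM. PMAIP1, which encodes the death-promoting NOXA, measured 190, 201 and 121 CPM against 98.7 to 102 CPM in the 3 controls. Both were higher without replicate 3, by 0.78 (adjusted p = 3.2e-14) and 1.00 (adjusted p = 6.4e-15) on the log2 scale, and by 0.52 and 0.49 after removal of the trend. In replicate 3 PMAIP1 stayed above the controls and MCL1 did not.

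The study picked BBC3, SMAD6, BMP7 and SMURF2 on these libraries, so their direction here is not independent evidence. The study also measured RNA and protein of these genes in CRLM1-overexpressing cells after hnRNPK knockdown, and hnRNPK binding at BBC3. Those experiments are not part of the counts read here. BBC3, the p53-induced killer PUMA, measured 116, 114 and 212 CPM against 159, 176 and 178 CPM, so replicate 3 lay above the controls and the other hnRNPK libraries below. BMP7, a secreted growth factor, measured 9.64, 9.59 and 17.5 CPM against 13.3, 14 and 14.4 CPM with the same order. SMURF2, a ubiquitin ligase of SMAD signalling, measured 158, 130 and 75 CPM against 119, 111 and 110 CPM, the reverse order. SMAD6, an inhibitory SMAD, measured 1.06, 0.494 and 1.68 CPM against 1.44, 1.41 and 1.83 CPM. Without replicate 3 the log2 fold changes were -0.53 for BBC3 (adjusted p = 4.4e-09), -0.49 for BMP7 (adjusted p = 0.0017), 0.38 for SMURF2 (adjusted p = 7.6e-06) and -0.95 for SMAD6 (adjusted p = 0.046). After removal of the trend they were 0.10 (adjusted p = 0.20), -0.11 (adjusted p = 0.59), -0.16 (adjusted p = 0.051) and -0.56 (adjusted p = 0.34), and 0 of the 4 passed the test.

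The other lists are given at any fold without replicate 3, beside 29.5% of all genes higher and 29.1% lower, and after removal of the trend, beside 13.5% and 13.6%. Before removal of the trend, the counts of higher p53 targets and ZNF genes lay near the share of all genes. Of 37 genes of TGF-beta and BMP signalling, 9 were higher and 12 lower, and after removal of the trend 3 were higher and 8 lower. ID2, an inhibitor of helix-loop-helix factors that BMP induces, was higher, with 20.1, 17.7 and 16.9 CPM against 11.1, 11.9 and 11.1 CPM. Its log2 fold change without replicate 3 was 0.94 after removal of the trend (adjusted p = 4.4e-07). Of 25 ATF4 targets, which serve amino acid supply, 5 were higher and 12 lower, and 4 and 12 after removal of the trend. The amino acid transporter SLC7A5 measured 185, 201 and 374 CPM against 385, 374 and 409 CPM, and the serine synthesis enzyme PHGDH measured 50.9, 47.6 and 88.7 CPM against 81.6, 78.4 and 80.9 CPM. Of 25 cholesterol synthesis genes, 9 were higher and 13 lower, and 2 and 11 after removal of the trend. Of 29 interferon-stimulated genes, 11 were higher and 5 lower, and 7 and 3 after it. Of 29 p53 targets, 9 were higher and 12 lower, and 8 and 4 after it. Of 32 glycolysis and hypoxia genes, 8 were higher and 19 lower, and 12 and 9 after it. Of 34 mitosis genes, 22 were higher and 5 lower, and 9 and 4 after it, while replicate 3 alone gave 3 higher and 13 lower (all genes 14.3% and 15.7%). Of 331 zinc finger genes named ZNF, 95 were higher and 55 lower, and 34 and 27 after it, while replicate 3 alone gave 14 higher and 61 lower of 325.

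Replicate 3 alone had its own lowest genes. LIFR, the receptor of leukaemia inhibitory factor, measured 11.9, 10.0 and 2.72 CPM against 8.94, 8.08 and 8.08 CPM. TRIM36, a ubiquitin ligase, measured 13.9, 12.5 and 3.22 CPM against 8.85, 8.30 and 8.08 CPM, and USPL1, a SUMO protease, measured 10.7, 8.41 and 3.22 CPM against 8.18, 8.35 and 9.81 CPM. In all 3 genes replicate 3 lay far below the controls and replicate 1 above them. These genes had a GC content of 38.4%, 42.2% and 43.4%. In replicate 3 alone their log2 fold changes were -1.65, -1.42 and -1.48, and -1.28, -1.2 and -1.31 after removal of the trend.

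The effect of hnRNPK in CRLM1 cells was set against that in the Ctrl and Antisense backgrounds, which have their own controls. Of the 451 genes higher in CRLM1 cells without replicate 3, 191 were also called higher in Ctrl cells when the third hnRNPK library of that background was left out, which is 42.4% of the first list and 24.6% of the 776 genes of the second (5.17% of the genes tested in Ctrl). In Antisense cells 148 were called higher, 32.8% of the first list and 14% of 1056 genes (7.28% of the genes tested). Of the 327 lower genes, 79 were called lower in Ctrl (24.2%, and 30.9% of 256) and 72 in Antisense cells (22%, and 8.14% of 885). Over all genes tested, 1.71% were called lower in Ctrl and 6.1% in Antisense. The log2 fold changes in those comparisons had Spearman correlations with GC content of -0.75 in Ctrl without the third hnRNPK library and -0.72 in Antisense. With the trend removed and the third hnRNPK libraries left out everywhere, 30 of 102 higher genes were also called higher in Ctrl and 26 in Antisense. Of 80 lower genes, 13 and 9 were called lower there. The share of all genes called in Ctrl and Antisense with the trend removed is not given here, so these overlaps have no baseline. The part of base composition in the shared calls was not tested.

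The interaction term tested whether the effect differed between backgrounds. Against Ctrl, 0 of 15188 genes (0%) were called with edgeR's quasi-likelihood test and 221 had an unadjusted p under 0.05, in a fit that held the third hnRNPK libraries of both backgrounds. Without the third hnRNPK libraries, 520 of 15485 genes (3.36%) had a higher effect in CRLM1 cells at any fold. A lower effect was found for 14 (0.0904%). With the trend also removed the counts were 178 (1.16%) and 11 (0.072%). At a 2-fold difference, 4 genes were called without the third hnRNPK libraries (0.0258%), named here after their values were seen. PDK4, which restrains pyruvate oxidation, gave -0.43 in CRLM1 cells and 1.53 in Ctrl cells on the log2 scale (difference -1.93, adjusted p = 0.0044). CXCL3 gave 0.95 and -0.30 (difference 1.29, adjusted p = 0.026). The others were MGC32805 (difference 1.04, adjusted p = 0.0068) and ETV1, an ETS factor (difference -1.08, adjusted p = 0.032). With the trend also removed, the difference was 1.23 for CXCL3 (adjusted p = 0.061) and -1.07 for ETV1 (adjusted p = 0.058), so neither passed the test. PDK4 was low throughout, with 1.52, 1.68 and 1.18 CPM with hnRNPK in CRLM1 cells and 2.74, 1.72 and 2.18 CPM without.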

How the data were processed

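RNA-seq of HCT116 cells was analysed from 6 libraries, 3 CRLM1_hnRNPK and 3 CRLM1_NC, grouped by the labels, with the 12 Ctrl and Antisense libraries used for interactions. The authors prepared libraries with KAPA RNA HyperPrep, trimmed reads with FASTX-Toolkit, aligned them with TopHat2 to GRCh38 with Gencode models and deposited raw counts of uniquely mapped reads per gene. The authors also deposited FPKM values, a per-length and per-depth scaling of the counts, which were used only for limma. The strand setting of the counting is not given in the sources used here, so values of genes that overlap are uncertain.

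Counts were fitted in R 4.3.3 with edgeR 4.0.16 (TMM, filterByExpr, robust quasi-likelihood F-test, no replicate block). A gene was called at an adjusted p of at most 0.05 and a fold change of at least 2 or at most 0.5. CPM were scaled by TMM over all 18 libraries. Depth was 19923727 to 25830383 counts per library, where 3 counts correspond to 0.135 to 0.152 CPM. GC content and exon length came from Gencode on GRCh38, and their trend was removed by loess offsets (span 0.3) fitted for each library. The fits were also run on simulated data with 200 changed genes. There all hnRNPK libraries shared the same GC trend or had none, without an opposite trend as in replicate 3. The simulation therefore does not describe the fit of all libraries. The alternatives were RLE size factors, DESeq2 1.42.0, limma 3.58.1 on log2 FPKM with a pseudocount of 0.1 or 1, other count filters, 1 fit of 18 libraries, a replicate block and leaving out libraries.

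The members, the gene lists and the tests were chosen with earlier results of these data known. Named genes were HNRNPK, RP4-710M16.2 and PPAP2B. With a mean of at least 5 CPM they were further the 8 highest and 8 lowest log2 fold changes called without replicate 3, the 6 in each direction of those with the widest gap between groups, the 5 highest and 5 lowest called with the trend removed, and up to 4 in each direction called in replicate 3 alone. Examples of lists, and PDK4, MGC32805, FZD2, NIPSNAP3A and RN7SK, were chosen after their values were seen.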

Additional observations from a re-analysis of the deposited data

Results flagged for a closer look

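The effect of hnRNPK in CRLM1 cells differed from that in Antisense cells for 141 of 15233 genes (0.926%). These had an adjusted p of at most 0.05 and at least a 2-fold difference of effects. The test was the interaction term of edgeR's quasi-likelihood test, adjusted by Benjamini-Hochberg. The effect in CRLM1 cells was higher for 100 of them and lower for 41. The balance turned in the other fits, with 289 higher and 413 lower without the third hnRNPK libraries, 130 and 231 with the trend removed, and 235 and 463 with both. Among the named genes that were called, HIST2H2BE, a histone H2B gene, had the largest difference, and its log2 effect in CRLM1 cells minus that in Antisense cells was 2.44 (adjusted p = 0.019). It was 0.67 in CRLM1 cells with all libraries and -1.78 in Antisense cells. HSPA1B differed by 2.08 (adjusted p = 0.019), with 0.82 in CRLM1 and -1.27 in Antisense cells. HIST1H1C differed by 1.19 (adjusted p = 0.034), with 0.49 and -0.71. In Ctrl cells without the third hnRNPK library, HIST2H2BE, HSPA1B and HIST1H1C gave 0.30, 0.41 and 0.18.

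The immediate early and inflammatory genes FOS, IRF1, NFKBIA and IL32 also gave a higher effect in CRLM1 than in Antisense cells. FOS differed by 1.28 (adjusted p = 0.029), IRF1 by 1.47 (adjusted p = 0.027), NFKBIA by 0.97 (adjusted p = 0.041) and IL32 by 1.27 (adjusted p = 0.045). The difference of NFKBIA was short of 2-fold. In Antisense cells these 4 genes gave -0.53, -0.89, -0.65 and -0.72. In Ctrl cells without the third hnRNPK library they gave 0.49, -0.36, -0.32 and -0.69. MT-ND5, a mitochondrial complex I subunit, gave -0.42 in CRLM1 and -1.63 in Antisense cells, and the difference was 1.20 (adjusted p = 0.029). MGC32805, chosen after its values were seen, differed by 1.53 (adjusted p = 0.027). In Ctrl cells without the third hnRNPK library MT-ND5 gave -0.85 and MGC32805 gave -0.86.

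The amino acid response genes ASNS, which makes asparagine, and CEBPG, a partner of ATF4, gave a lower effect in CRLM1 than in Antisense cells. In Ctrl cells without the third hnRNPK library their effects were 0.06 and 0.19. ASNS differed by -1.72 (adjusted p = 0.019), with -0.07 in CRLM1 and 1.64 in Antisense cells, and CEBPG differed by -1.31 (adjusted p = 0.027), with -0.15 and 1.15. TRIM27 differed by -1.22 (adjusted p = 0.021), with -0.90 in CRLM1 and -0.05 in Ctrl cells when the third hnRNPK library of that background was left out, and 0.31 in Antisense cells. Without the third hnRNPK libraries and with the trend removed, the differences of these 12 genes ran from -1.83 (ASNS) to 2.97 (HIST2H2BE). Each kept the direction given here, with adjusted p of at most 0.00012 (HSPA1B). That fit used libraries on which the 12 genes had been picked, so it is not an independent check.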

How the results depend on the processing

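With all libraries, 0 genes were called with RLE size factors, a minimum mean of 1 CPM, the replicate block and limma on log2(FPKM + 0.1) or log2(FPKM + 1). DESeq2 called 7, no filter 1 (CXCL8), a single fit of all 18 libraries 2 (CXCL8 and NIPSNAP3A), removal of the GC and length trend 3, and the replicate block with that removal 2 (RN7SK and TRIM27). Leaving out 1 library gave 0 to 778 genes, 778 without CRLM1_hnRNPK replicate 3. RN7SK measured 8.77, 4.45 and 9.53 CPM against 4.36, 2.09 and 3.40 CPM.

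Without replicate 3, 778 genes became 182 with the trend on GC content and length removed, 188 with that on GC content alone and 98 with limma on log2(FPKM + 1), of which 78.6% were higher, beside 58% in the main count and 69.8% of 537 with limma on log2(FPKM + 0.1). RLE gave 774, DESeq2 638, no filter 815, a minimum of 1 CPM 587, and leaving out 1 more library 725 to 850. Replicates 1, 2 and 3 alone went to 125, 154 and 187 genes with the trend removed.

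The correlation of the log2 fold change with GC content was -0.64 with all libraries and -0.77 to -0.39 when 1 hnRNPK library was left out, -0.77 without replicate 3, -0.39 without replicate 1 and -0.46 without replicate 2. The interaction with Ctrl gave 4 genes without the third hnRNPK libraries and 3 with the trend also removed (MGC32805, FZD2 and PDK4). That with Antisense gave 702 without the third hnRNPK libraries, 361 with the trend removed and 698 with both, beside 141, and the share of genes higher in CRLM1 cells went from 70.9% to 41.2%, 36% and 33.7%.

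Same-numbered replicates did not deviate together, with correlations of 0.06, 0.009 and 0.082, so the numbers were not taken as pairs. With the replicate block 804 genes were called without replicate 3, 165 in the interaction with Antisense and 0 in that with Ctrl.

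Of 83 named genes, 73 kept the sign of their log2 fold change under every alternative and 10 did not, 3 of these only when 1 library was left out. LIFR, at 0.02 with all libraries, gave -0.01 with no filter and with limma on log2(FPKM + 1), -0.03 in the fit of 18 libraries, -0.19 with the replicate block, -0.44 with the trend removed, -0.50 with both, -0.17 with limma on log2(FPKM + 0.1), -0.19 without replicate 3 with the trend removed, and -0.37 to 0.43 when 1 library was left out, -0.17 without replicate 2. With the trend removed, RP4-710M16.2 gave -0.01, TRIM36 -0.10, BBC3 0.08, ETV1 -0.30 and SMURF2 -0.22, with the block added -0.01, -0.19, 0.08, -0.30 and -0.23. Without replicate 3 and with the trend removed, RP4-710M16.2 gave -0.04, BBC3 0.10, ETV1 -0.38, MGC32805 -0.16 and SMURF2 -0.16. Leaving out 1 library gave -0.51 to 0.35 for NPAT, -0.57 to 0.16 for USPL1, -0.07 to 0.69 for TRIM36, -0.28 to 0.24 for ETV1 and -0.13 to 0.38 for SMURF2, each between the fits without hnRNPK replicate 1 and without replicate 3, and CEBPG gave -0.3 to 0.04. The cause of these changes was not tested. A difference of a gene near the count filter, or under the spread that replicate 3 adds, was not detectable at this depth and replication.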
